A study of Pistia stratiotes with 8 samples.

Results

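Among the transcript models of Pistia stratiotes, a free-floating water plant of the arum family, 39 were among the most abundant in both leaf and root and had similar levels in the organs. They were chosen from 16504 models by 2 criteria. A model had to be among the 200 highest by mean normalized count in leaf and also among the 200 highest in root, and its leaf mean divided by its root mean had to lie between 0.5 and 2. The choice used the measured values of all 8 libraries. The level of the 39 in leaf and root, and the ratio between them, are therefore descriptions and not findings.

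Messenger RNA was selected by its poly(A) tail and sequenced as 150 bp read pairs in 4 leaf and 4 root libraries. One mature plant per 500 ml flask with 200 ml of SH medium gave rise to new plants over 10 days, and plants bearing 3 to 4 leaves were taken. Leaf samples were the largest emerged leaf of every plant in a flask, and root samples were roots trimmed of apex and laterals, so neither root tips nor lateral roots were measured. A replicate was the pooled tissue of 1 flask. No treatment, accession or age beyond this was given in the labels. A normalized count is a read count that the authors had scaled between libraries. It is taken here as not divided by transcript length, which the processing notes do not state. A rank by normalized count is then a rank by reads and favours long transcripts. Levels of different models are not compared as numbers of molecules. In pooled tissue, a lower level in fewer cells and a lower level per cell cannot be told apart.

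In most plant tissues a small set of genes supplies a large part of the messenger RNA. Genes needed in nearly every living cell, such as those for protein synthesis, the cytoskeleton and primary metabolism, are commonly abundant in green and non-green organs alike, whereas genes of photosynthesis dominate leaves. The table names models only by number and pairs them with no gene name. No role can be given to any of the 39, and neither the identity of the organs nor the gene groups to which the models belong could be checked against marker genes.

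The leaf list and the root list of 200 had 109 models in common, 54.5% of either list. Of these, 66 had a leaf mean over 2 times the root mean, 4 had a root mean over 2 times the leaf mean, and the remaining 39 (19.5% of either list) lay between. The models common to both lists were thus mostly higher in leaf on the deposited scale, and the 39 are the part near the diagonal. By normalized count, the best rank of any of the 39 was 25 in leaf and 8 in root, and their median ranks were 130 and 93.

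**Figure D1:**
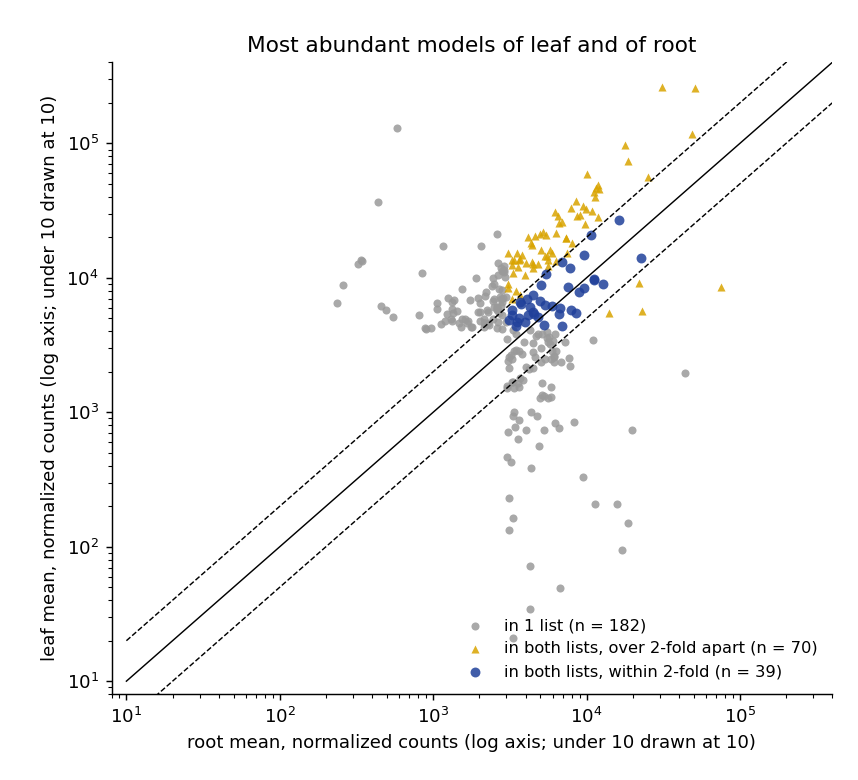
Leaf mean (y axis) against root mean (x axis), in normalized counts on log axes, for the 291 models in either list of 200. Blue points are the 39 models in both lists and within 2-fold, yellow triangles the 70 in both lists but over 2-fold apart, and grey points the 182 in 1 list; the solid line marks equal levels and the dashed lines 2-fold.

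The limits of the ratio are described here among models in both lists. At the upper limit, the last model inside had a leaf mean 1.94 times its root mean and the first model outside 2.03 times. At the lower limit the nearest ratios were 0.621 inside and 0.420 outside, so no model in both lists lay close to 0.5. The last ranks inside were 191 in leaf and 189 in root. The nearest models that met the ratio but missed a list stood at rank 205 in leaf and at rank 207 in root.

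The 39 models had leaf means of 4374 to 27129 normalized counts (median 6231), whereas their root means were 3108 to 22723 (median 5394). Single values ran from 2190 to 47745 normalized counts. The lowest value in any library corresponded to about 1745 reads, for which counting error alone is about 2.39% of the value.

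Together the 39 models made up 3.79%, 3.86%, 3.90% and 4.48% of leaf libraries 1 to 4 and 4.45%, 4.78%, 4.73% and 5.01% of root libraries 1 to 4. Leaf libraries 1 to 3 lay below every root library, and leaf library 4 lay just above root library 1. Leaf shares averaged 4.01% ± 0.318 and root shares 4.74% ± 0.233 (SD over 4 libraries). The 66 shared models that were over 2-fold higher in leaf held 27.0% ± 4.12 of the leaf counts and 10.0% ± 0.987 of the root counts, so the 39 were a minor part of what both lists hold. Within the 39, the 5 highest models of a library held 27.9% to 31.5% of the group's leaf counts and 27.3% to 28.7% of its root counts.

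The mean ratio across 4 libraries does not say that a model was abundant in each of them. Of the 39 models, 25 were among the 200 highest in all 8 libraries, and 36 were among the 300 highest in all 8. In single root libraries 37 to 39 of them were among the 200 highest, and the lowest-placed model stood at rank 200 to 225. In single leaf libraries 33 to 36 were, and the lowest-placed model fell to rank 221 to 461. The median rank of the 39 was 130 in leaf and 93 in root, so they stood nearer the limit of 200 in leaf. Whether the lower numbers in single leaf libraries came from this or from uneven leaf libraries was not tested.

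A library that was not used for the choice gives a partly independent look at the rule. Its own values were not used, but the mean of the other organ in the ratio was. The share that meets the rule also depends on how near the models stood to its limits. The models were chosen again from the other 7 libraries, and their rank in the remaining library, and their ratio to the mean of the other organ, were then read. Without root library 1, 2, 3 or 4, the rule picked 37 to 40 models, and 87.2% to 94.6% of them met the rank and the ratio in the library left out. Without leaf library 2 it picked 39 models, of which 34 (87.2%) met both in that library. Without leaf library 1 it picked 44, of which 24 (54.5%) did, the lowest share of the 8. Leaf libraries 3 and 4 gave 26 of 38 (68.4%) and 25 of 36 (69.4%). No model chosen without a root library lay over 2-fold from the other root libraries in it, whereas 1 to 5 models did in each leaf library, with the highest number, 5, in leaf library 1.

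On the deposited scale the 39 models leaned towards leaf. In 27 of them the leaf mean exceeded the root mean and in 12 it was lower, and 14 had a ratio above 1.5. The median difference was 0.29 on the log2 scale, with a range of -0.76 to 0.96, against a median of -0.05 for all 13688 tested models. A fit across all tested models (limma, Benjamini-Hochberg adjusted p under 0.05) called 13 of the 39 in favour of leaf and 1 in favour of root. Of all tested models, 24.4% were called in favour of leaf and 27.2% in favour of root. Because the rule used the same contrast, these calls are no test of the 39. On the deposited scale the 95% interval of the difference lay wholly within 2-fold for 18 of the 39, of which 17 were not called. The rule kept only ratios within 2-fold, so these intervals are no test of likeness either. The other members have intervals that reach past 2-fold, so a ratio inside the limits does not show that their levels in leaf and root were alike.

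**Figure D2:**
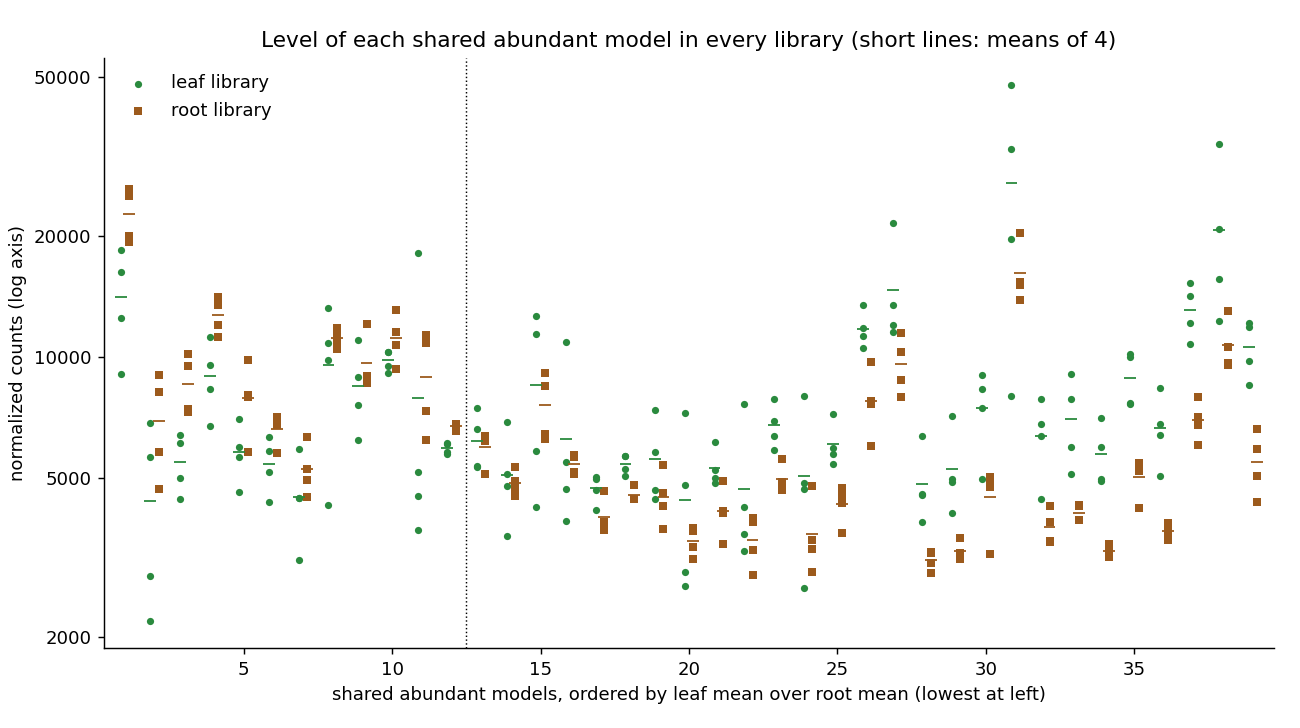
Normalized counts (y axis, log) of each of the 39 models in the 4 leaf libraries (green circles) and the 4 root libraries (brown squares), ordered along the x axis from the lowest to the highest ratio of leaf mean to root mean; short lines are means, and the dotted line separates the 12 models with a lower leaf mean from the 27 with a higher one. Leaf points of a model are generally farther apart than its root points.

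By single values, all 4 leaf libraries lay above all 4 root libraries in 14 models, and all 4 root libraries lay above all 4 leaf libraries in 4. The values overlapped in the remaining 21. Over all tested models the corresponding shares were 22.6% with leaf above and 26% with root above.

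The direction of these differences depended on the scale. Leaf columns had totals of 7299221 to 8749656 normalized counts and those of root 5458151 to 5809933, although the estimated reads per library were similar, at 5814220 to 6209344 in leaf and 5832503 to 5994452 in root. When each library was set to a common total of 1000000 (CPM), 0 of the 39 were called in favour of leaf and 13 in favour of root, against 13.7% and 48.8% of all tested models. With quantile normalization the calls were 0 and 15, against 28% and 26.2% of all tested models. The 1 model called higher in root on the deposited scale was called so on all 3 scales, and 0 of the 13 called higher in leaf were called on either of the other 2. Relative to the median of all tested models, the median of the 39 lay 0.34 higher on the deposited scale (log2), 0.30 higher with column totals and 0.37 lower with quantile normalization. The number of models above that median was 27, 27 and 9.

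**Figure D3:**
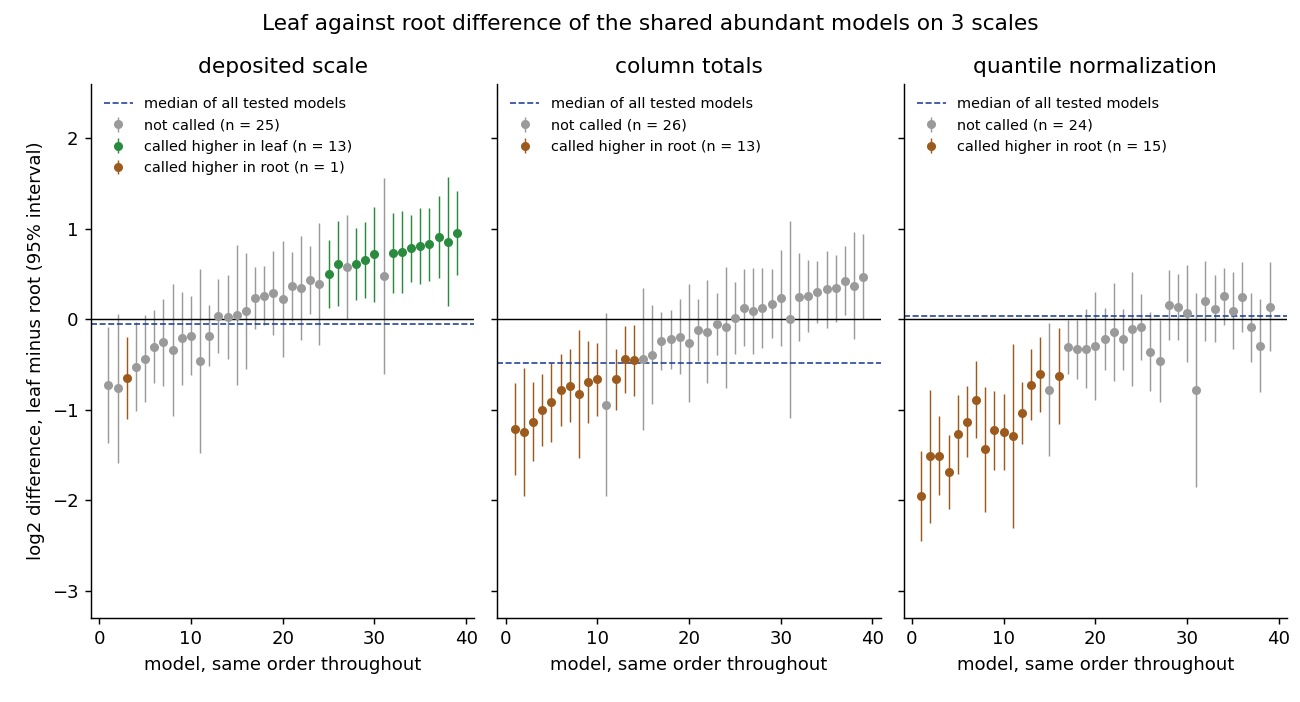
Leaf minus root difference (log2, y axis) of the 39 models in the same order (x axis) on the deposited scale, with column totals and with quantile normalization; bars are 95% intervals from limma, colours show the call, and the dashed line is the median of all tested models. Points called higher in leaf appear on the deposited scale and on neither of the others.

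Models are named here as examples of these patterns. The steadiest on the deposited scale was Pis06744.t1, which was picked after its values were seen. It had 5741, 6069, 6097 and 5782 normalized counts in leaf libraries 1 to 4 and 6522, 6715, 6813 and 6775 in root libraries 1 to 4. On the deposited scale it hardly varied within either organ, and every root library lay above every leaf library by a small margin. Its leaf mean was 0.883 times its root mean, and the difference of -0.18 (log2, standard error 0.15) was not called on that scale. On the CPM scale the same model had 656, 820, 761 and 792 CPM in leaf and 1195, 1207, 1212 and 1166 CPM in root. Root stood above leaf in every library on both scales, with the wider gap on the CPM scale. Its leaf values, 656 to 820 CPM, also ranged more widely there, so its steadiness in leaf belongs to the deposited scale.

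Pis14515.t1 had the highest mean of the 39. Its leaf values were 8003, 19651, 33116 and 47745 normalized counts in libraries 1 to 4, and its root values were 15084, 20348, 13856 and 15381. The root libraries lay together, while the leaf libraries lay on both sides of them. The highest leaf library was 5.97 times the lowest, the widest leaf range of the 39, against 1.47 times in root. The leaf mean was 1.68 times the root mean and the difference of 0.48 (log2, standard error 0.49) was not called. Without leaf library 1 the difference was 0.98 and was called. A ratio inside the limits here averages leaf libraries that are far apart.

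Pis15378.t1 ranked 8 by normalized count in root and 54 in leaf. It had 18472, 12539, 16331 and 9061 normalized counts in leaf and 19375, 20006, 25244 and 26266 in root. All root values exceeded all leaf values. The leaf mean was 0.621 times the root mean, the lowest ratio of the 39, and the difference was -0.73 (log2, standard error 0.29). It was not called on the deposited scale (limma adjusted p = 0.057) but was called with column totals (-1.21) and with quantile normalization (-1.95), and without leaf library 1 (-0.87). With all libraries it was also called with array weights (-0.82), an untrended variance (-0.73) and a pseudocount of 10 (-0.73).

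Pis18473.t1 and Pis02009.t1 had the highest means among the 13 models called higher in leaf. Pis18473.t1 had 33987, 20903, 15663 and 12311 normalized counts in leaf and 9539, 9634, 10609 and 13049 in root. Leaf library 4 lay below root library 4, so the organs overlapped. Its difference of 0.86 (log2, standard error 0.32) was called, but the call was lost without leaf library 1 or 2 and without any one of the root libraries. With quantile normalization its difference turned to -0.29, which was not called.

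Pis02009.t1 had 15306, 10801, 14180 and 12135 normalized counts in leaf and 6750, 6016, 7953 and 7079 in root. The organs did not overlap, and the difference was 0.91 (log2, standard error 0.20). It was called with any 1 library left out. It was not called with column totals (0.43) and turned to -0.09, not called, with quantile normalization.

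Pis08579.t1 was the 1 model called higher in root on the deposited scale. It had 4974, 4431, 6114 and 6374 normalized counts in leaf and 7398, 10147, 7281 and 9467 in root. Every root library exceeded every leaf library, and the difference was -0.65 (log2, standard error 0.20). The call was lost without leaf library 2, root library 2 or root library 4, which left 0 models called higher in root. Without leaf library 1 there were 4 such models, and without leaf library 4 there were 2. Over all tested models, calls in either direction numbered 7462 and 7239 in these fits, against 7063 with all libraries. These totals combine both directions, and the number tested can differ with a library left out. They therefore give no share to set beside the counts for root alone.

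Leaf replicates of the 39 models were farther apart than root replicates. The median absolute deviation over the 39 models was 0.288, 0.114, 0.284 and 0.235 (log2) in leaf libraries 1 to 4 and 0.113, 0.096, 0.099 and 0.078 in root libraries 1 to 4. Every leaf library exceeded every root library, although leaf library 2 exceeded root library 1 by a narrow margin. Leaf averaged 0.230 ± 0.081 and root 0.096 ± 0.014 (SD over 4 libraries), a ratio of 2.39. The same libraries chose the 39 by their means, and such a choice can favour steady models in either organ. The ratio is therefore a description, and no test of it is used. With the lists shortened to 100 models, which left 12 members, the ratio was 1.61.

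**Figure D4:**
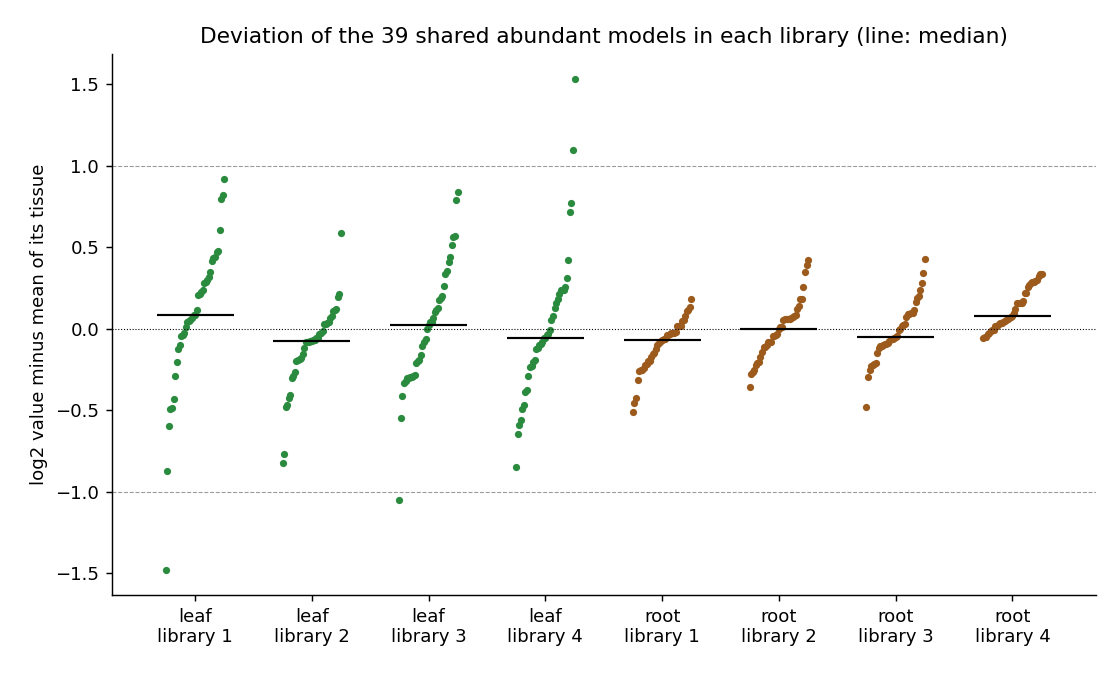
Deviation of each of the 39 models from the mean of its organ (log2, y axis) in each library (x axis); points are models sorted by value within a library, black lines are medians, and dashed lines mark 2-fold. Points reach -1.48 and 1.53 in leaf libraries 1 and 4 and lie between -0.51 and 0.43 in the root libraries.

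Model by model, the SD of log2 values was larger in leaf than in root for 33 of the 39, against 71.1% of all tested models. The same held for 63 of the 66 shared models over 2-fold higher in leaf and for the 4 over 2-fold higher in root. The ratio of leaf to root deviation was 1.91 and 2.49 in those groups and 1.502 for all tested models. The median SD was 0.34 in leaf and 0.17 in root for the 39, and 0.35 and 0.23 for all tested models. In leaf the 39 were thus spread about as widely as the typical tested model, and in root less widely. The highest leaf library exceeded the lowest by over 2-fold in 11 of the 39 (37.3% of all tested models) and by over 3-fold in 6 (17.7% of all). In root 0 of the 39 reached 2-fold (16.2% of all tested models), and the widest range was 1.92-fold. All tested models include weakly expressed ones with more counting error, so these shares are given for scale only.

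The 66 shared models over 2-fold higher in leaf offer a closer comparison, since they come from the same lists. Their median absolute deviation was 0.502, 0.112, 0.145 and 0.472 (log2) in leaf libraries 1 to 4 and 0.189, 0.131, 0.086 and 0.238 in root. The 39 had the smaller deviation in leaf libraries 1 and 4 and in root libraries 1, 2 and 4, and the larger one in leaf libraries 2 and 3 and root library 3. In leaf libraries 1 and 4 the 66 also shifted as a group, with median shifts of 0.485 and -0.464 (log2). Another comparison is the 40 models in 1 list whose ratio lay within 2-fold. They averaged 0.215 in leaf and 0.121 in root, against 0.230 and 0.096 for the 39. The 66 averaged 0.308 in leaf and 0.161 in root. In leaf the 39 thus had a smaller average deviation than the 66, but not than the 40. For the reason given above, these differences were not tested.

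**Figure D5:**
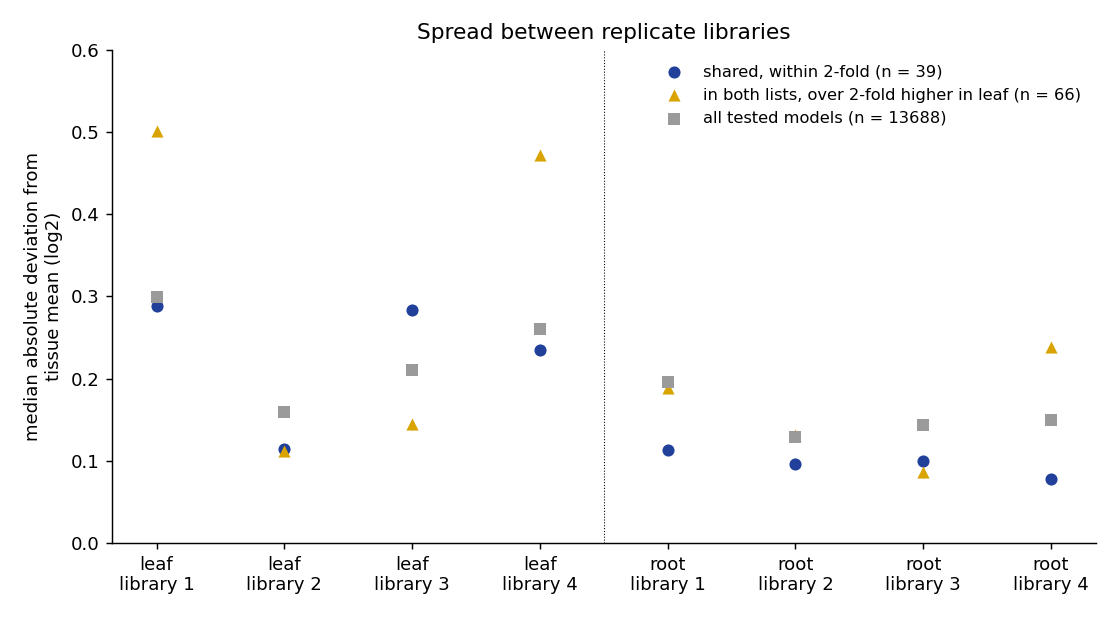
Median absolute deviation from the organ mean (log2, y axis) in each library (x axis) for the 39 shared models within 2-fold (blue), the 66 shared models over 2-fold higher in leaf (yellow) and all 13688 tested models (grey). The blue points lie at 0.114 to 0.288 in leaf and 0.078 to 0.113 in root.

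The leaf libraries did not differ in a single direction. Between leaf libraries 1 and 4, 7 of the 39 models (17.9%) were over 2-fold apart, against 24% of all tested models, and 4 of them were higher in library 1 and 3 in library 4. Leaf libraries 1 and 3 also had 7 models over 2-fold apart (15.5% of all tested models). Leaf libraries 1 and 2 had 2 such models, as did leaf libraries 2 and 3, where 13.5% and 10.8% of all tested models were that far apart. Leaf library 4 had 4 against library 2 and 4 against library 3, where 10.5% and 13.8% were. Of the 6 pairs of root libraries, 0 had a model of the 39 that far apart, although 6.37%, 5.87%, 6.85%, 3.77%, 3.8% and 4.05% of all tested models were, in the order of library numbers. Small shifts of the whole group occurred in both organs. In leaf library 1, 26 of the 39 models lay above their leaf mean, with a median shift of 0.088 (log2), against 0.048 for all tested models. In leaf library 2, 27 lay below their leaf mean, with a median of -0.071, against 0 for all tested models. In root library 1, 29 lay below their root mean, with a median of -0.071, against -0.018 for all tested models. In root library 4, 31 lay above their root mean, with a median shift of 0.078, against 0.019 for all tested models. The 66 shared models over 2-fold higher in leaf shifted further there, with 60 above their root mean and a median of 0.24.

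Pis06768.t1 and Pis18372.t1 had the largest leaf SDs of the models not called, after Pis14515.t1. Pis06768.t1 had 4494, 3692, 5162 and 18202 normalized counts in leaf and 7340, 11352, 6198 and 10846 in root. Leaf library 4 stood above all root libraries and the other leaf libraries below them. With all libraries its ratio of 0.883 equalled that of Pis06744.t1 to 3 digits, with a standard error of 0.46 on a difference of -0.46 (log2). It was not called on the deposited scale. It was called without leaf library 4 (-0.97) and, with all libraries, after quantile normalization (-1.29).

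Pis18372.t1 had 6831, 2846, 5627 and 2190 normalized counts in leaf and 4688, 5786, 9004 and 8171 in root. It varied within both organs, 3.12-fold in leaf and 1.92-fold in root, and held the last leaf rank of the 39. Its difference was -0.76 (log2, standard error 0.37), not called on the deposited scale. It was called without leaf library 1 (-1.03) and, with all libraries, with column totals (-1.25), quantile normalization (-1.52) and array weights (-1.07). Across the 39 models, leaf SD and root SD had a Spearman correlation of 0.33, close to the 0.37 across all tested models. These values share their libraries and are given as a description.

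Model numbers carried one property that the rule did not use. The table holds a single transcript model per gene number throughout, so none of the 39 shares a gene number with another row, and a split of reads between listed models of the same gene number cannot arise in it. Reads shared with near-identical copies under other numbers could not be examined without sequences. Of the 39, 2 (5.13%) carried a transcript number other than 1, against 11.6% of tested models, 4% of the leaf list and 6% of the root list. The gene numbers of the 39 ran from 1578 to 20134 in a table that reaches 20355, and 0 pairs had consecutive numbers, the closest being 16 apart.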

How the data were processed

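The authors deposited 1 table of normalized counts (a signal scaled between libraries) for 16504 models and 8 libraries, with 0 columns unused. Per the submitters' processing notes, Salmon and DESeq2 were used, with no role, order or version. Neither the transcript set nor the genome build is named in the sources used here. Of the values above 0, 0% were whole numbers, so whole reads were not recovered and no count test was run. The worth of a read was taken as the median of the lowest band of values, 0.928 to 1.45 normalized counts. Leaf columns are numbered 1 to 4 but leaf labels 1, 3, 4 and 5, so leaf columns were assigned to the organ only, and libraries are numbered as in the table. A model was tested if 4 or more libraries (3 with a library left out) reached 10 normalized counts, which 13688 models did, the 39 among them. Values were log2(normalized count + 1), a scale that understates changes of low values. Fits used limma 3.58.1 (R 4.3.3; trended variance, organ as the only term), tested on simulated data, and other values were computed in Python 3.11.15. An exact permutation test planned for the replicate spread is not used, since the models were chosen from the same libraries. The models and lists were chosen with earlier results of these data known. Named models were the 2 highest means among those not called and among those called in each direction (1 in root), and the 2 largest leaf SDs among those not called. Flasks are the replicates, so p-values set a difference against the spread between flasks. The fit used a single variance per model for both organs, drawn towards a trend over all tested models. Calls and intervals thus assume equal spread in leaf and root, although leaf replicates of the 39 were farther apart. No sequences or gene names were used.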

Additional observations from a re-analysis of the deposited data

Results flagged for a closer look

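A value far from the other 3 libraries of its organ was found in 2 of the 18 groups of 4 examined, with a Dixon test at the 95% level, where chance alone marks about 1 group in 20. That rate does not apply to Pis06768.t1, which was named for its large leaf SD. It had 18202 normalized counts in leaf library 4, compared with 3692 to 5162 in leaf libraries 1 to 3, and the gap above the next value was 0.899 of the range. The 39 models together took 4.48% of leaf library 4, and 3.79% to 3.90% of the other leaf libraries, a gap of 0.837 of the range. Pis14515.t1 alone was 14.6% of the group's counts in leaf library 4 and 2.41% to 10.6% in the others. Without it the group took 3.83% of leaf library 4 and 3.49% to 3.70% of the other leaf libraries.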

How the results depend on the processing

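The number of models that met the rule changed with the limits of the rule and with the scale, and less with the other choices. The rule gave 12 models with lists of 100, 75 with lists of 300, 22 with limits of 1.5-fold, 67 with limits of 3-fold and 74 after quantile normalization, of which 28 were among the 39. With column totals it gave 58, of which 36 were among the 39. With medians over libraries in place of means it gave 43, and with single libraries left out 36 to 44. Shares in leaf and root were 2.01% and 2.34% with lists of 100, 5.72% and 7.10% with lists of 300, 1.79% and 2.51% with limits of 1.5-fold, 10.9% and 9.20% with limits of 3-fold, and 9.57% and 7.48% for models chosen on column totals. Without Pis14515.t1, an alternative chosen after seeing the data, they were 3.65% and 4.45%. With single libraries left out and the models chosen again, they were 3.46% to 4.98% in leaf and 4.33% to 5.38% in root. The 13 models called higher in leaf became 0 with column totals, 0 with quantile normalization and 5 at adjusted p under 0.01. They became 14 with an untrended variance, 14 with array weights, and 9 to 13 with single libraries left out. The 1 called higher in root became 2 with a pseudocount of 10, 13 with column totals, 15 with quantile normalization, 3 with an untrended variance, 6 with array weights, 0 at adjusted p under 0.01 and 0 to 4 with single libraries left out. Calls over all tested models also moved. They are counted here in both directions together and are not shares for leaf or root alone. They numbered 7063 on the deposited scale, 7152 with a pseudocount of 10, 6803 with an untrended variance and 8042 with array weights. With column totals they were 8551 and with quantile normalization 7419. At adjusted p under 0.01 they were 5217, with single libraries left out 6288 to 7462, and with a replicate block 6574. Quantile normalization turned Pis18473.t1 to -0.29 and Pis02009.t1 to -0.089. The cause of these changes was not tested. A replicate block on the column numbers gave 10 higher in leaf and 0 in root. These numbers are not taken as pairs, since leaf columns and labels are numbered differently. Deviations of same-numbered columns correlated at -0.02 to 0.03, and those of other leaf and root columns at -0.215 to 0.29. Because the pairs, if any, are not known, these values do not show whether leaf and root shared flasks. The ratio of leaf to root spread was 1.61 with lists of 100 and otherwise 1.63 to 2.39 with all libraries; with single libraries left out it was 1.90 to 2.77. Summing by gene number and leaving out models that share one could not change a value, because no number occurs more than once.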
